A study of Danio rerio with 7 samples.

Results

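Among cardiomyocytes of hmga1a-/- zebrafish hearts 7 days after cryoinjury, a minority held detected transcripts of ATF3, JUND or NR4A3. These are immediate early transcription factor genes. The wells described here come from 4 mutant plates. A well was considered if it held at least 1000 transcripts outside the spike-in RNA and the mitochondrially encoded genes, and if MYL7, the atrial-type regulatory myosin light chain that zebrafish cardiomyocytes use throughout the heart, made up at least 2% of these. Of 534 mutant wells of that depth, 481 passed the MYL7 threshold. Each well was thinned at random to 1000 transcripts, and 86 wells were selected on their values of the 3 genes: those that then held at least 1 transcript of them were called side A. The other 395 wells were called side B. The 4 mutant plates held 23, 15, 26 and 22 side A wells and 86, 62, 142 and 105 side B wells. The whole series of 7 plates, with the wild-type ones, held 2688 sequenced wells, of which 1033 reached 1000 transcripts.

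Cells were dissociated from ventricles of adult fish carrying Tg(nppa:mCitrine), a reporter in which the promoter of the natriuretic peptide gene nppa drives a fluorescent protein, and sorted 1 per well by high reporter signal. The mutant plates carried Tg(nppa:mCitrine);hmga1a-/- and the 3 wild-type plates Tg(nppa:mCitrine);hmga1a+/+, all at 7 days post injury. Cells came from several hearts per genotype and no plate is tied to separate animals, and the spread that enters each p-value is that between plates, which may be technical only. If the gate was set on this reporter, cardiomyocytes with low nppa promoter activity were not sampled. Plates are numbered in order of deposit, and equal numbers pair nothing across genotypes. The labels give mCitrine as the reporter but also name mCherry as the colour sorted on, a difference that was not resolved.

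ATF3 codes for a bZIP transcription factor that cells induce within minutes to hours of stress or injury. JUND is a Jun-family subunit of AP-1, the dimer that Jun and Fos proteins form. NR4A3 is an orphan nuclear receptor of the NR4A family, whose genes are also switched on rapidly and transiently by many stimuli. Immediate early genes as a class need no new protein synthesis to be induced, and their transcripts are often short-lived. How far this holds for JUND was not tested here. In the injured zebrafish heart, AP-1 factors are known to act in cardiomyocytes near the wound, where nppa and nppb are also expressed. All wells went through the same enzymatic dissociation, a step that is also known to induce immediate early and heat shock genes in many tissues.

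Side A wells made up 21.1%, 19.5%, 15.5% and 17.3% of the considered wells of mutant plates 1 to 4, with a mean of 18.3% ± 2.46 (SD, n = 4 plates). In the wild-type plates 3.26%, 4.15% and 2.15% of wells held the 3 genes, with a mean of 3.19% ± 0.999 (SD, n = 3 plates), or 15 of 471 wells. No wild-type plate reached the lowest mutant plate. These shares are a description without a test, because the 3 genes were chosen for their level in these plates. They also depended on depth. Thinned to 500 and 2000 transcripts, the mean mutant share was 10.1% and 36.7%, and the mean wild-type share 2.47% and 7.20%. The exact 95% binomial (Clopper-Pearson) interval of the lowest mutant plate was 10.4 to 21.8%, and that of the highest wild-type plate 1.81 to 8.00%; such intervals cover counting error only.

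**Figure D1:**
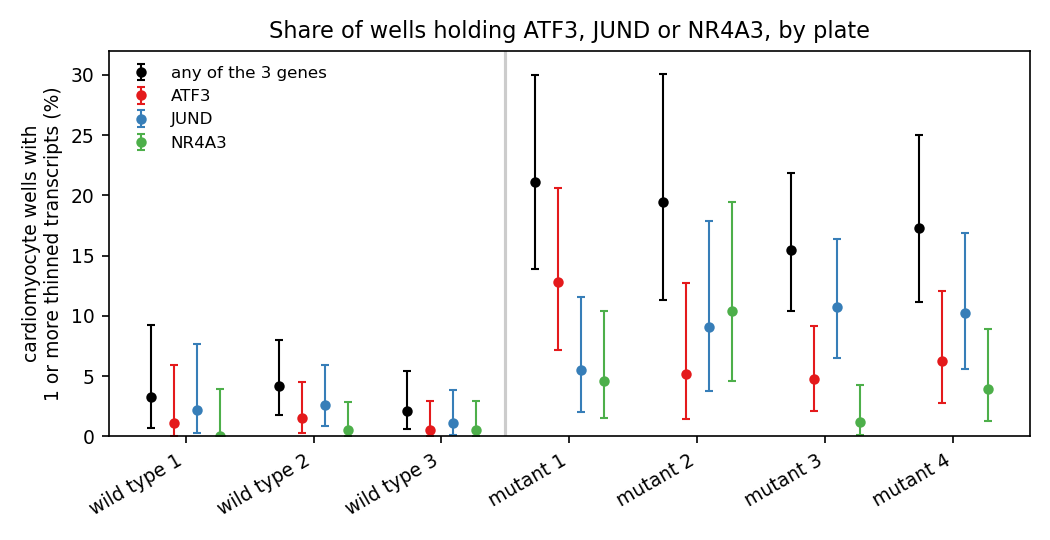
Share of considered wells, in percent, that held at least 1 thinned transcript of any of the 3 genes or of each gene, by plate; points are plate values and bars are exact 95% binomial intervals. For any of the 3 genes the 4 mutant plates sit between 15.5 and 21.1% and the 3 wild-type plates between 2.15 and 4.15%.

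JUND was found in the most wells. It was present in 44 mutant side A wells, ATF3 in 34 and NR4A3 in 20. By plate, ATF3 was held by 12.8%, 5.20%, 4.76% and 6.30% of mutant wells, JUND by 5.51%, 9.09%, 10.7% and 10.2%, and NR4A3 by 4.59%, 10.4%, 1.19% and 3.94%. In this draw ATF3 led in plate 1, NR4A3 in plate 2 with 8 wells against 7 for JUND, and JUND in plates 3 and 4. Without thinning JUND led in plate 2, with 13 wells against 10 for NR4A3. In plate 1 ATF3 was then found in 23 wells and JUND in 21. In wild-type plates ATF3 was found in 5, JUND in 9 and NR4A3 in 2 of 471 wells.

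Most side A wells held only 1 of the 3 genes, but 61 of the 86 held a single thinned transcript and so could hold no second gene. ATF3 alone marked 28 wells, JUND alone 34 and NR4A3 alone 13. ATF3 occurred with JUND alone in 4 wells and with NR4A3 alone in 1, JUND with NR4A3 alone in 5, and all 3 genes occurred in 1 well. At a depth of 1000 transcripts an overlap of genes at this level is seen only in part, and the overlap was not tested.

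Membership rested on few molecules. Of the 86 side A wells, 61 held a single thinned transcript, 14 held 2, 6 held 3 and 5 held 4 or more, up to 13. Before thinning, 67 side B wells also held a transcript of the 3 genes, 36 of them just 1, while 328 held none. Side A wells held 70% of the 494.2 transcripts of the 3 genes in the considered mutant wells. Which wells were members therefore depended on the random thinning: in 3 further draws 81, 84 and 84 wells fell on side A, and 53, 60 and 56 of these were members in the reported draw. For genes that passed in the reported draw, the difference in those draws is also given below.

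The lowest MYL7 shares among members were 2.30% and 2.69%, and the highest share below the threshold in a mutant well was 1.96%. The shallowest member held 1074.1 transcripts, and the deepest mutant well below the minimum held 986.8. The median member had a MYL7 share of 5.21%.

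Side A and side B each held transcripts of 11 of 12 cardiomyocyte markers. Among the 11 are MYL7, on which the rule selected, and nppa, whose promoter drives the reporter. Their detection over many wells is therefore no test of the label cardiomyocyte. Markers of other cell types were low on both sides, with those of smooth muscle and mural cells the highest. Per 10000 transcripts, macrophage and leukocyte markers summed to 0.497 ± 0.315 on side A and 0.545 ± 0.436 on side B (mean ± SD, n = 4 plates), with 5 of 21 genes detected on side A and 16 at 0. Endocardial and endothelial markers summed to 0.120 and 0.0573 with 3 of 15 detected on side A. Fibroblast and epicardial markers summed to 1.39 and 1.47 with 4 of 21 detected. Smooth muscle and mural markers summed to 3.65 and 4.58 with 4 of 9 detected. By plate they were 4.65, 6.76, 0.927 and 2.24 on side A and 6.97, 7.65, 1.66 and 2.05 on side B. Both of the 2 members with enough transcripts for a test of single genes were negative, with TAGLN at -1.04 on the log2 scale (SE 0.41, edgeR adjusted p = 0.343). Erythrocyte markers summed to 0.0412 and 0.0173 with 1 of 2, and thrombocyte markers were at 0 on both sides. The differences of these sums between sides gave p from 0.25 to 1.0 in an exact sign-flip permutation test over plates (two-sided). The part of such cells in the results was not tested.

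Side A wells were somewhat deeper and held more genes. The median well of side A held 2751, 3097, 2854 and 1858 transcripts in plates 1 to 4, and that of side B 2212, 2281, 2393 and 1762. Side A was the deeper side in each plate, with means of 2640 ± 541 and 2162 ± 277 (SD, n = 4). After thinning to equal depth, the median side A well showed 398, 363, 384.5 and 380.5 genes, and the median side B well 365, 339.5, 352.5 and 353. The mean difference was 29 ± 4.38 genes (SD, n = 4), again with side A above side B in each plate.

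The share of transcripts from mitochondrially encoded genes was lower in side A wells of every plate. It was 1.24%, 0.892%, 0.925% and 1.04% on side A and 2.75%, 3.08%, 1.13% and 1.23% on side B. Most of the difference lay in plates 1 and 2, with a mean of -1.85 percentage points, against -0.197 points in plates 3 and 4. A code in the deposited names of the plates sets plates 1 and 2 apart from plates 3 and 4. These groups are called run 1 and run 2 here, a reading that the labels do not give. Side A of plate 1 lay above side B of plates 3 and 4, so the sides overlapped across plates. The ribosomal protein share was 9.40%, 8.52%, 10.9% and 10.1% on side A against 10.3%, 11.1%, 11.9% and 9.72% on side B, lower in 3 of 4 plates. For 4 pairs the exact sign-flip permutation test cannot go below p = 0.13, which transcripts, genes and mitochondrial share each reached (adjusted p = 0.5 over 12 measures).

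**Figure D2:**
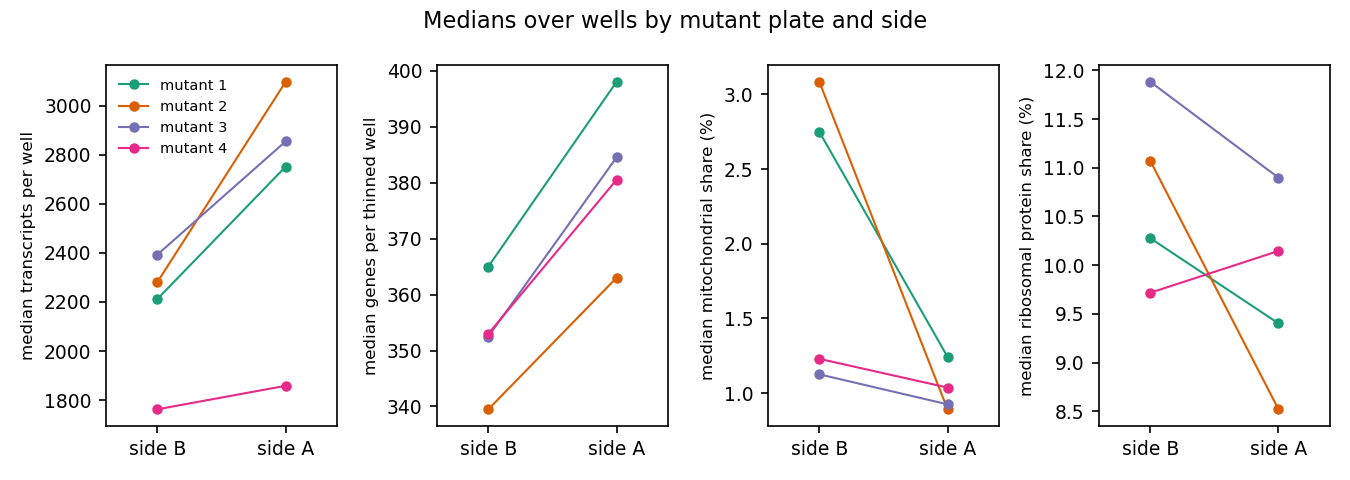
Medians over wells of side B and side A in each mutant plate, joined by plate, for transcripts per well, genes per well thinned to 1000 transcripts, mitochondrial share (%) and ribosomal protein share (%); the vertical axes do not start at 0. In every plate the side A median lies above side B for transcripts and genes and below it for the mitochondrial share.

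To ask what else distinguished these cells, the transcripts of the considered wells were summed per plate and side and compared within plates, with the 3 genes left out. Side A sums held 60598 to 96557 transcripts and side B sums 171320 to 432883. Of 1032 genes with enough transcripts for a test, 8 passed edgeR's quasi-likelihood test at a Benjamini-Hochberg adjusted p under 0.05 (0.775%), all 8 higher and 0 lower (0%) on side A. Levels are given as CPM, counts per library size scaled by TMM. The 8 genes were hspb9l, FLNC, PHLDA2, ENSDARG00000087665, hsp90aa1.1, SOCS3, nppb and xirp1. At an unadjusted p under 0.05 there were 127 genes (12.3%), 69 higher (6.69%) and 58 lower (5.62%). On the same sums DESeq2 called 9 and limma-voom 10 genes.

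The 8 calls depended strongly on the draw of the thinning and on single wells. In the 3 further draws 12, 8 and 13 genes passed the threshold (1.12%, 0.724% and 1.21% of those tested), of which 1, 0 and 0 were among the 8. Of those calls 10, 7 and 10 were mitochondrially encoded genes, all lower on side A. ENSDARG00000080337, a gene without a symbol, was also called lower in all 3, and ENSDARG00000082753, likewise without one, in draw 4. Both were counted as non-mitochondrial. The median log2 fold change of the 8 genes was 1.93 in the reported draw and 0.39, 0.47 and 0.86 in the others. In the reported draw 1 well of mutant plate 2, with 24.2% of the transcripts of its sum, held 59.5% of all side A transcripts of nppb and 64.4% of those of hsp90aa1.1. Without this well, an alternative chosen after the data had been seen, only hspb9l passed (0.098%). Without plate 1 or plate 4 only hspb9l passed, and without plate 2 there were 12 calls. The 2 plates of run 1 alone gave 0 calls (0%; 136 genes at an unadjusted p under 0.05), and the 2 of run 2 alone gave 7 (0.522%), with hspb9l as the only gene shared with the 8.

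**Figure D3:**
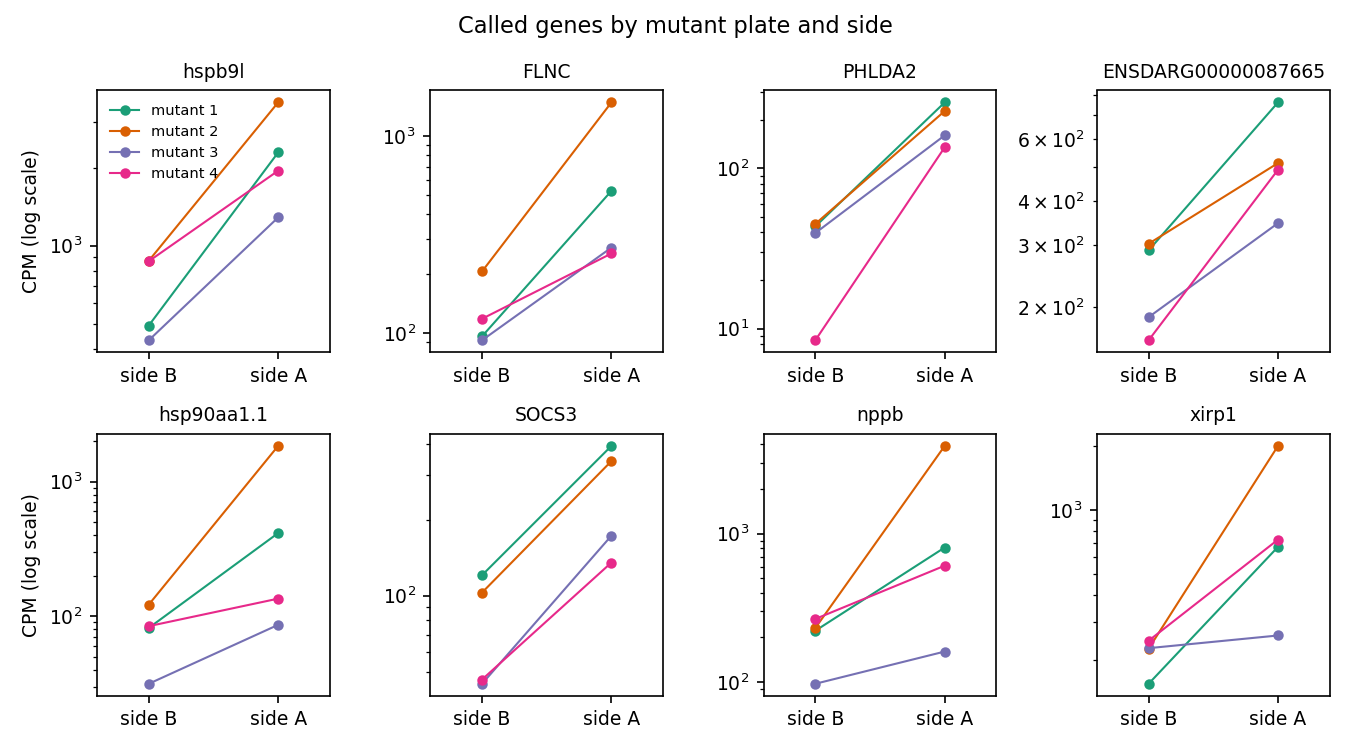
CPM (transcript level per library size, TMM-scaled, log axis) of the 8 called genes in the side B and side A sums of each mutant plate, joined by plate. Every line runs upward; for hsp90aa1.1 and nppb the lowest side A sum lies below the highest side B sum, and mutant plate 2 stands highest on side A for hspb9l, FLNC, hsp90aa1.1, nppb and xirp1.

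The gene hspb9l is by its name a member of the small heat shock proteins, which hold unfolding proteins in solution. Among the 8 called genes it gave the most stable difference. Its sums stood at 2287, 3568, 1284 and 1945 CPM on side A of plates 1 to 4, and at 492, 874, 432 and 871 CPM on side B. The lowest side A sum was higher than the highest side B sum. It rose by 1.74 on the log2 scale (SE 0.18; edgeR adjusted p = 0.000557). In the other draws the log2 difference was 1.06, 1.06 and 1.02, with edgeR adjusted p of 0.0164, 0.0529 and 0.16. It was positive in 29 of 29 alternatives and passed the threshold in 21. Most of these alternatives kept the side A wells of the reported draw or a part of them. Among alternatives whose side A was not set by the reported draw, hspb9l passed without thinning and in draw 2. It did not pass in draws 3 and 4, or for wells that thinning selects in at least 50% of draws. The difference was spread over many cells: 67 of 86 side A wells and 170 of 395 side B wells held an hspb9l transcript. After thinning to equal depth 66.9% ± 4.37 of side A wells and 28.9% ± 7.19 of side B wells did (SD, n = 4 plates). Side A was higher in 4 of 4 plates. The exact sign-flip permutation test gave p = 0.13, the smallest possible, and adjusted p = 0.194 over 28 genes. Those 28 were chosen by their p in these same sums or after their values were seen, so this test is no separate support. These shares are those of the reported draw alone.

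BAG3, a co-chaperone that links HSP70 to small heat shock proteins and to the autophagic removal of damaged sarcomere proteins, fell just short of the threshold. BAG3 is described here after its values were seen. Its sums were 572, 1063, 309 and 237 CPM on side A and 145, 174, 129 and 190 CPM on side B, without overlap. The log2 difference was 1.60 (SE 0.33; edgeR adjusted p = 0.055), and 1.30, 1.04 and 0.78 in the other draws (adjusted p = 0.156, 0.149 and 0.442). After thinning 23.9% ± 8.33 of side A wells and 9.46% ± 2.49 of side B wells held BAG3 (SD, n = 4 plates). Its partner HSPB8 was at 280, 873, 161 and 220 CPM on side A and 135, 77.1, 113 and 148 CPM on side B. The HSPB8 difference of 1.39 (SE 0.46, adjusted p = 0.328) was -0.05, 0.26 and 0.21 in the other draws, and 39.3% of its side A transcripts came from the single well of plate 2.

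Of 36 heat shock and chaperone genes in the list, 15 were tested, and 1, hsp90aa1.1, was called, against 0.775% of all genes tested. The list does not hold hspb9l, so its counts and medians leave that gene out. The median log2 difference of the 15 was 0.53 with 13 positive, beside -0.02 with 499 of 1032 positive over all genes tested. A low gene could reach the level needed for a test through side A, so this count is no support for a direction. Without a filter on low counts, 34 members could be fitted, of which 17 were positive and 17 negative. Their median was 0.02, beside -0.55 over all genes. Nuclear respiratory chain genes also shifted in that fit, from a median of -0.04 to -0.48. Its sign counts are therefore not counts about no change. hsp90aa1.1, the inducible cytosolic HSP90, which zebrafish muscle uses for myosin folding, stood at 415, 1841, 86.5 and 135 CPM on side A against 81.96, 122, 31.6 and 84.5 CPM on side B. It rose by 2.34 on the log2 scale (SE 0.46, edgeR adjusted p = 0.0478), but the sides overlapped. Without the single well of plate 2 its difference was 0.98 (adjusted p = 0.594), and it was -0.24 and -0.52 in 2 of the other draws and not tested in the third.

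The gene hsp70l, an inducible HSP70, did not pass the threshold in any of the 4 draws. It stood at 404, 550, 259 and 203 CPM on side A against 246, 257, 105 and 199 CPM on side B, a log2 difference of 0.81 (SE 0.28, adjusted p = 0.328). In the other draws it was 1.22, 1.30 and 1.09 (adjusted p = 0.104, 0.0573 and 0.197), so the difference of hsp70l was larger there. For hspa1b it was 1.86 (SE 0.64, edgeR adjusted p = 0.328) in the reported draw and 0.53, 0.37 and 0.29 in the others. The single well of plate 2 held 54.3% of the side A transcripts of hspa1b, which reached the level needed for a test largely through side A. The difference was 0.09 (SE 0.12) for HSPA8 and -0.08 (SE 0.14) for HSP90AB1, the constitutive members of the same families. Over the list, the median in the other draws was 0.16, 0.28 and 0.18, against -0.01, 0.02 and 0.00 for all genes.

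Of 43 other immediate early genes listed beyond the 3, only 9 held enough transcripts for a test. Of these 1, SOCS3, was called, against 0.775% of all genes tested. A low gene could pass the level filter through side A where it was high, so the counts over these 9 are no support for a direction. The 9 tested genes had positive differences with an unadjusted p under 0.05 and a median log2 difference of 1.43, beside -0.02 over all genes tested. Without the filter, 37 members could be fitted, of which 31 were positive and 6 negative, with a median of 1.04 beside -0.55 over all genes. With the filter, the median within the plates was 1.29, 1.72, 1.22 and 1.08. In the other draws the median was 0.93, 0.69 and 1.06, with 8 of 9, 8 of 9 and 7 of 7 positive, and no member was called. These genes belong to the same functional class as the 3 that chose the wells.

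SOCS3, a feedback inhibitor of JAK-STAT signalling that STAT3 induces, stood at 392, 342, 173 and 135 CPM on side A. On side B it stood at 121, 103, 44.7 and 46.5 CPM, and the sides did not overlap. It rose by 1.73 (SE 0.34, edgeR adjusted p = 0.0478). The difference was 0.03, 0.47 and 1.31 in the other draws (adjusted p from 0.381 to 0.991), and 1.67 (adjusted p = 0.13) without the single well of plate 2, which held 8.0% of its side A transcripts.

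FOS, the AP-1 partner of Jun proteins, kept its difference over the draws better. FOS is named after its values were seen. Its sums were 605, 607, 272 and 101 CPM on side A and 188, 167, 68.4 and 110 CPM on side B, higher on side A in 3 of 4 plates and lower in plate 4. The log2 difference was 1.49 (SE 0.34, adjusted p = 0.104), and 1.33, 1.56 and 1.06 in the other draws (adjusted p = 0.0954, 0.0529 and 0.504). FOS came from few wells, 19 of 86 on side A and 56 of 395 on side B, and after thinning the shares were 12.23% ± 8.89 and 9.24% ± 3.08 (SD, n = 4 plates).

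NR4A1, a nuclear receptor of the same family as NR4A3, was at 191, 342, 123.5 and 135 CPM on side A and 77.1, 51.4, 73.7 and 63.4 CPM on side B. The sides of NR4A1 did not overlap, but NR4A1 passed the level filter through its side A sums. Its log2 difference was 1.44 (SE 0.45, edgeR adjusted p = 0.304). The NR4A1 difference was 0.93, 0.07 and 1.06 in the other draws. The remaining tested members were mcl1a, an anti-apoptotic BCL2 relative (1.61, SE 0.45), CEBPD (1.43, SE 0.63), MIDN (1.11, SE 0.43), the antiproliferative genes BTG2 (1.04, SE 0.44) and BTG1 (0.63, SE 0.23), and ZFP36L1 (0.85, SE 0.39), which promotes decay of short-lived mRNAs; adjusted p ranged from 0.213 to 0.401. In the other draws mcl1a was tested in 1, with a difference of 0.70, BTG1 gave 0.34, 0.23 and 0.36, and MIDN gave 1.204, 0.75 and 0.72. The values of CEBPD, BTG2 and ZFP36L1 are those of the reported draw alone. Like NR4A1, mcl1a passed the level filter through side A, so the differences of both are no support for a direction.

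PHLDA2, a small protein with a pleckstrin homology-like domain, passed the level filter through its side A sums, and was tested in 20 of 29 alternatives and called in 8. It stood at 258, 228, 161 and 135 CPM on side A and 43.4, 44.99, 39.5 and 8.45 CPM on side B, without overlap. It rose by 2.54 (SE 0.47, edgeR adjusted p = 0.0478). The difference was 1.38, 0.61 and 1.41 in the other draws (adjusted p from 0.311 to 0.681). Thinned wells with PHLDA2 made up 11.4% ± 8.80 of side A and 1.35% ± 0.526 of side B (SD, n = 4 plates).

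The gene ENSDARG00000087665, for which no name was at hand, stood at 762, 512, 346 and 490 CPM on side A. On side B it stood at 289, 302, 187 and 161 CPM, without overlap. ENSDARG00000087665 rose by 1.17 (SE 0.23, edgeR adjusted p = 0.0478), and its difference was 0.61, 0.31 and 0.93 in the other draws.

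Of 23 genes linked to the border zone, the stressed myocardium next to the wound, 11 were tested and 3 were called, against 0.775% of all genes tested. These were FLNC, nppb and xirp1. Without the filter, 19 members could be fitted, of which 10 were positive and 9 negative. Their median was 0.19 beside -0.55 over all genes, a downward shift that these sign counts carry too. The median over the 11 was 0.37 in the reported draw, beside -0.02 over all genes, and 0.16, 0.09 and 0.22 in the others, beside -0.01, 0.02 and 0.00, in which no member was called. FLNC, or filamin C, cross-links actin at the Z-disc and is a client of BAG3. It stood at 527, 1480, 272 and 254 CPM on side A and at 96.4, 206, 92.1 and 118 CPM on side B, without overlap. FLNC rose by 2.06 (SE 0.31, edgeR adjusted p = 0.0128), but its difference was 0.32, 0.24 and 0.45 in the other draws.

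xirp1, a Xin repeat protein of intercalated discs and sites of sarcomere repair, stood at 673, 1993, 259 and 727 CPM on side A and at 154, 225, 226 and 245 CPM on side B. The xirp1 sums did not overlap, though side A of plate 3 lay just above the highest side B sum. It rose by 1.80 (SE 0.36, edgeR adjusted p = 0.0478). In the other draws the difference was 0.47, 0.87 and 0.80, with adjusted p from 0.299 to 0.639. The natriuretic peptide gene nppb, a marker of wall stress, stood at 807, 3909, 161 and 609 CPM on side A and 222, 231, 97.4 and 266 CPM on side B, with overlap. nppb rose by 2.13 (SE 0.43, edgeR adjusted p = 0.0478), its difference was 1.105 (adjusted p = 0.268) without the single well of plate 2, and it was 0.03, -0.25 and 0.04 in the other draws.

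nppa, whose promoter drives the reporter, did not pass. Its sums were 460, 1215, 432 and 524 CPM on side A and 786, 553, 392 and 596 CPM on side B. Side A was higher in 2 of 4 plates, with a log2 difference of 0.09 (SE 0.27, adjusted p = 0.918). The nppa difference was negative in the 3 other draws, from -0.51 to -0.12. The other tested border zone genes included DES, the muscle intermediate filament (0.33, SE 0.15), MUSTN1 (0.37, SE 0.17) and SYNPO2L (-0.04, SE 0.15), none called.

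The single well of plate 2 held 44.3% of the side A transcripts of FLNC, 33.1% of xirp1, 19.8% of hspb9l, 17.9% of PHLDA2 and 11.7% of BAG3. It held no FOS transcript. Without it, the log2 difference was 1.28 for FLNC, 1.39 for xirp1, 1.47 for hspb9l and 1.54 for BAG3. Leaving out instead the deepest member, a well of plate 1 with 14.8% of its sum, left 3 calls, FLNC, PHLDA2 and hspb9l.

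**Figure D4:**
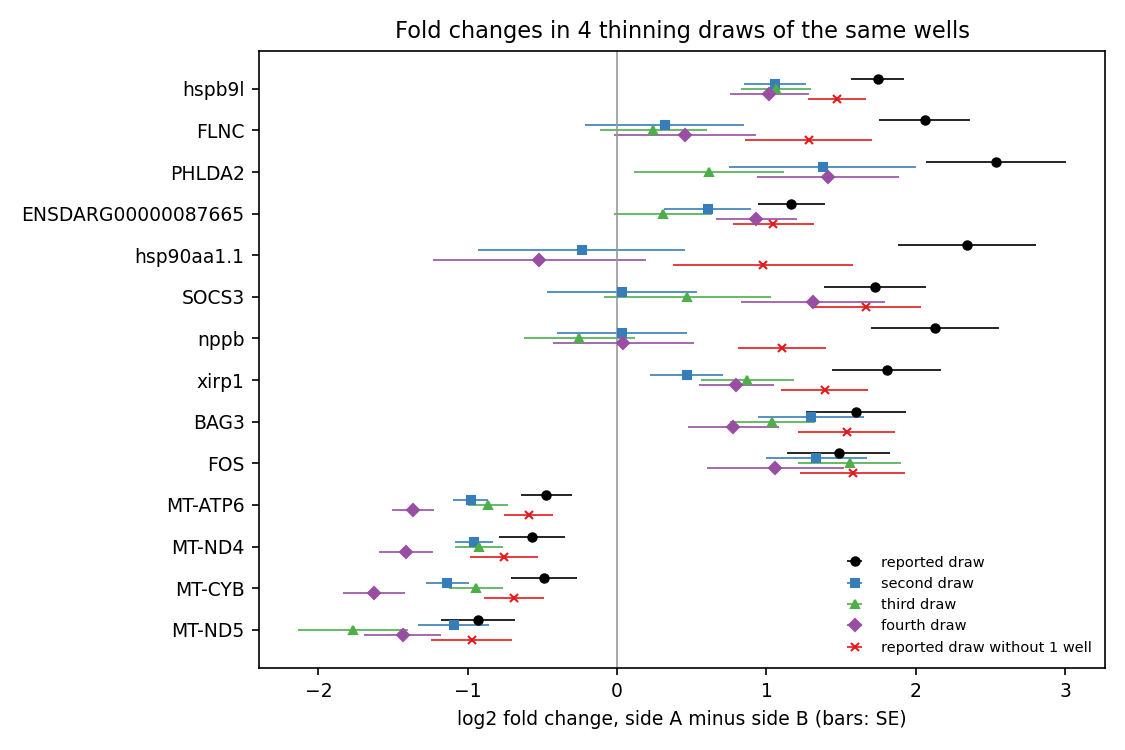
Log2 fold change of side A minus side B with its SE (bars) for the 8 called genes, BAG3, FOS and 4 mitochondrially encoded genes, in the reported thinning draw, in 3 further draws and in the reported draw without the 1 well of mutant plate 2 that held the most nppb. hspb9l, BAG3 and FOS stay between 0.78 and 1.74 in all 4 draws, nppb and hsp90aa1.1 lie near or below 0 in the others, and the mitochondrial genes are lower in all.

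Mitochondrially encoded genes, which code for subunits of the respiratory chain and ATP synthase, were lower on side A in each draw. All 10 tested members had a negative difference in all 4 draws, with medians of -0.37, -0.97, -0.85 and -1.39. No member was called in the reported draw, in which 5 had an unadjusted p under 0.05, whereas 10, 7 and 10 were called lower in the others. Within plates the median difference of the reported draw was -1.45 in plate 1 but 0.06, 0.12 and -0.37 in plates 2 to 4.

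MT-ND5, a subunit of complex I, had the smallest p among genes lower on side A. It stood at 269, 190, 469 and 406 CPM on side A and 709, 643, 639 and 541 CPM on side B, without overlap. Its log2 difference was -0.93 (SE 0.25, edgeR adjusted p = 0.18), and it was -1.10, -1.77 and -1.44 in the other draws (adjusted p = 0.0398, 0.0452 and 0.0131). MT-ATP6, a subunit of ATP synthase, stood at 5359, 9204, 7311 and 4972 CPM on side A and 12526, 10638, 7517 and 6707 CPM on side B, lower in 4 of 4 plates but with overlap. Its difference was -0.47 (SE 0.17, adjusted p = 0.339), and the other draws gave -0.98, -0.86 and -1.37 (edgeR adjusted p = 0.000751, 0.0177 and 0.000695). MT-CYB, the cytochrome b of complex III, gave -0.49 in the reported draw and -1.14, -0.95 and -1.63 in the others.

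The mitochondrial difference of the reported draw depended on plate 1 and on the single well of plate 2. Without plate 1 the median of the 10 genes was -0.01, with 5 positive. Without the single well of plate 2 it was -0.57, with all 10 negative. That well held 14660 transcripts with mitochondrial genes and 13473 without them, and made up 24.2% of its sum. Over the 2 plates of run 1 alone the median of the 10 genes was -0.75, and over those of run 2 it was -0.08, with 4 positive; plate 1 belongs to run 1. Among wells of at least 2000 transcripts the differences of MT-ND1, MT-ND2, MT-CO1 and MT-CO2 were slightly positive, from 0.02 to 0.08. For nuclear genes of the respiratory chain the median over 77 tested genes was -0.04, and 0.03, 0.07 and -0.03 in the other draws, with 49, 34, 30 and 42 of 77 negative. The part of run, depth or RNA quality in the mitochondrial difference was not tested.

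Most cytosolic ribosomal protein genes had a small negative difference. Of 69 tested members of 71, 67 were negative, 25 had an unadjusted p under 0.05, and none was called. Over all 1032 genes tested 533 were negative and 5.62% were lower at an unadjusted p under 0.05. The median was -0.25 in the reported draw, and -0.19, -0.25 and -0.19 in the others, with 67, 66 and 63 of 69 negative. RPL21 stood at 1435, 1271, 1717 and 1370 CPM on side A and at 1880, 1697, 2168 and 1847 CPM on side B, lower in each plate, a difference of -0.39 (SE 0.12, adjusted p = 0.304). RPL35A gave -0.41 (SE 0.13, adjusted p = 0.308) and RPL13A -0.48 (SE 0.15, adjusted p = 0.304). Translation initiation and elongation factors had a median of -0.20 over 28 tested genes, with 21 negative and none called.

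The remaining genes that ranked lowest by p on the lower side were ENSDARG00000077242 (-1.71, SE 0.47, adjusted p = 0.213), ENSDARG00000036174 (-0.48, SE 0.15, adjusted p = 0.308) and ZNF106, a zinc finger RNA-binding protein (-0.91, SE 0.30, adjusted p = 0.328). ZNF106 stood at 493, 171, 173 and 507 CPM on side A and 559, 675, 621 and 592 CPM on side B, without overlap. Its difference was between -1.10 and -0.70 in the other draws, in 1 of which it was called.

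**Figure D5:**
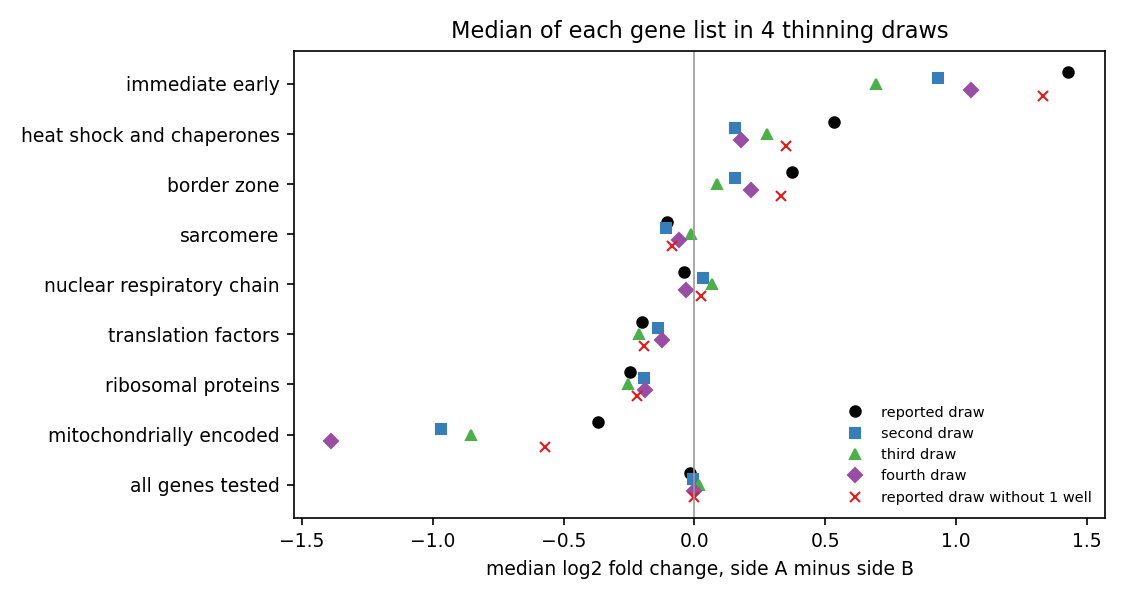
Median log2 fold change of side A minus side B over the tested members of 8 gene lists and over all genes tested, in the reported draw, 3 further draws and the reported draw without the 1 well of mutant plate 2. The immediate early list lies between 0.69 and 1.43 in the 4 draws, the ribosomal protein list between -0.25 and -0.19 and the mitochondrially encoded list between -1.39 and -0.37, while all genes lie near 0.

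Sarcomere genes stood close to the median of all genes. Of 43 sarcomere genes 23 were tested and none was called; the median was -0.10, and -0.11, -0.02 and -0.06 in the other draws. MYL7, which the rule used on both sides alike, gave -0.19 (SE 0.10, adjusted p = 0.474). The myosin light chain gene cmlc1 gave -0.02 (SE 0.11), the thin filament genes TNNT2 and tpm4a -0.12 (SE 0.10) and -0.10 (SE 0.10), and MYBPC3, the thick filament regulator, 0.17 (SE 0.11). The largest positive values in the list were those of the cardiac actin ACTC1 (0.63, SE 0.20, adjusted p = 0.308) and LMOD2, which sets thin filament length (0.51, SE 0.20, adjusted p = 0.343). Calcium handling genes had a median of 0.00 over 11 tested, genes of fatty acid use 0.13 over 20, tricarboxylic acid cycle genes -0.01 over 20 and glycolysis genes 0.00 over 18, with no call in any.

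Stress pathways other than heat shock were sparsely measured. Of 14 glucocorticoid targets 4 were tested and none was called, with a median of 0.45, and 0.28, 0.71 and 0.31 in the other draws. Of 22 integrated stress response genes only CHAC1, a glutathione-degrading enzyme that ATF4 induces, was tested. It stood at 594, 512, 580 and 558 CPM on side A and 419, 302, 276 and 270 CPM on side B, without overlap. The log2 difference of CHAC1 was 0.84 (SE 0.20, adjusted p = 0.111), and between 0.53 and 0.64 in the other draws. None of 19 genes of protein folding in the endoplasmic reticulum reached the level needed for a test. Oxidative stress genes had a median of 0.04 over 11 tested members, and the polyubiquitin gene UBB differed by 0.82 (SE 0.21, adjusted p = 0.134).

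Wells were also grouped by each of the 3 genes alone, and differences between the 3 groups, which share some wells, were not tested. By plate there were 14, 4, 8 and 8 ATF3 wells, 6, 7, 18 and 13 JUND wells, and 5, 8, 2 and 5 NR4A3 wells. The groups were formed in the reported draw alone, and sums of so few wells can rest on single cells. Each comparison used the same side B wells. Against these, hspb9l differed by 2.13 in the 34 ATF3 wells, 1.60 in the 44 JUND wells and 1.56 in the 20 NR4A3 wells, with edgeR adjusted p of 0.00546, 0.212 and 9.02e-07. The number of calls was 1, 0 and 4 (0.111%, 0% and 0.487% of genes tested), with hspb9l alone in ATF3 wells, and BAG3, FOS, hspb9l and ENSDARG00000062416 in NR4A3 wells.

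BAG3 rose by 2.56 in the 20 NR4A3 wells of the reported draw (edgeR adjusted p = 1.25e-05), of which plate 3 gave only 2. Its difference was 1.25 in ATF3 wells (adjusted p = 0.523) and 1.11 in JUND wells (adjusted p = 0.658). FOS rose by 2.39 in NR4A3 wells (edgeR adjusted p = 0.0232) and gave 1.53 in ATF3 and 1.35 in JUND wells. nppb gave 2.34, 0.31 and 1.496, and xirp1 2.59, 0.10 and 1.58, in ATF3, JUND and NR4A3 wells. MT-ATP6 gave -0.20, -1.46 and -0.46, and MT-CYB -0.10, -1.96 and -0.55. The lowest mitochondrial values thus stood in JUND wells, where none passed (adjusted p = 0.239 and 0.5).

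The targeted gene hmga1a was detected at low levels in mutant wells. Its sums were 106, 78.5, 25.9 and 53.1 CPM on mutant side A and 55.5, 52.1, 8.19 and 43.7 CPM on mutant side B, on a scale shared by both genotypes. On wild-type side B they were 44.5, 138 and 99.7 CPM, and on wild-type side A 226, 234 and 0 CPM. The mutant values overlapped the wild-type ones, and a transcript tag that lies outside the mutated part does not report the mutation. In mutants hmga1a was below the level needed for a test, with transcripts in 9 side A and 17 side B wells.

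The same division of wild-type wells gave small side A sums, from 3, 8 and 4 wells with 8234, 36097 and 7735 transcripts. Of 896 genes tested 9 were called (1%), 4 higher and 5 lower, and 60 had an unadjusted p under 0.05 (6.7%); DESeq2 called 0. None of the 9 was among the 8 genes called in mutants, but the mitochondrially encoded MT-ATP6, MT-CO2 and MT-CYB were among the 9. Without thinning, the 20 wild-type calls included hspb9l and several mitochondrially encoded genes. In the other draws no wild-type call was mitochondrially encoded. On the scale shared by both genotypes, hspb9l in wild-type plates stood at 1130, 1738 and 1179 CPM on side A and at 578, 772 and 788 CPM on side B. It was higher in 3 of 3 plates without overlap, with a log2 difference of 0.99 (SE 0.39) and an edgeR adjusted p of 0.372. ZNF106 fell by 3.43 on the log2 scale (SE 0.86, edgeR adjusted p = 0.0198) on wild-type side A, where it was at 0 in 2 of 3 sums, so that the fitted size is no bound.

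Whether the sides differed more in one genotype was tested by a side by genotype term over all 14 sums. Of 952 genes 0 passed edgeR's test (0%), 62 had an unadjusted p under 0.05 (6.51%), and DESeq2 called 0. For hspb9l the difference between genotypes was 0.79 on the log2 scale (SE 0.33, edgeR adjusted p = 0.658). With so few wild-type side A wells, differences between genotypes in this profile were not detectable at this depth, which does not show that the profiles are alike.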

How the data were processed

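CEL-seq2 plate libraries with spike-in RNA and molecular barcodes were made per the labels' protocols; the submitters' processing notes name BWA 0.6.2, and the sources used here give no build, annotation or strand setting. What was deposited are estimated counts, corrected by the authors for barcode saturation and given to 2 decimals for each gene in each well: 100% of 857630 values matched, within 0.0051, a whole barcode number corrected for a space of 4096 barcodes. Near-identical gene copies and overlapping genes may share reads. Plates held 280361 to 774838 transcripts, and no 2 plates held identical values. The tables hold gene identifiers; 13087 of 16394 matched a symbol. Mitochondrial genes were recognised by symbol (13 genes), so one without a symbol counted as non-mitochondrial. No doublet caller was run, since cells were sorted 1 per well. All plates use the same 384 well barcodes, each read within its own library.

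Estimated counts were thinned per well without replacement to 1000 transcripts (1 reported draw, 3 others) to set the sides. Unthinned values were summed per plate and side, rounded to whole counts and tested with edgeR 4.0.16 (R 4.3.3; TMM scaling, filterByExpr by side, quasi-likelihood F test with plate as a term, Benjamini-Hochberg adjusted p under 0.05 over all genes tested). The pairing comes from the design: both sides of a plate are 1 library. The same test was run on the 6 wild-type sums and, as a side by genotype term, on all 14 sums. Fold changes are side A minus side B on the log2 scale, with SE from the F statistic; CPM is a share of a sum, so genes are not independent. Plate measures were compared by an exact sign-flip permutation test. The edgeR procedure was also run on simulated sums with the dispersions of these data. It called 23.8%, 61.3% and 96.5% of genes changed 1.5-, 2- and 4-fold, and 0.6% of unchanged genes. The simulation held no plate effect, no draw of wells and no single-well outlier, so it does not cover the dependence of the calls on these. DESeq2 1.42.0 and limma 3.58.1 served as alternatives, with other thresholds, draws, scalings, filters, plates and runs.

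Named are, per direction, up to 15 genes of smallest p past the threshold, filled to 8 where fewer passed; called list members; up to 4 further members per list by level; and hmga1a, nppa, nppb and MYL7. Other genes were named after their values were seen. The wells, the 3 genes and the gene lists were chosen with earlier results of these data known. Of 22 pathway lists, 21 had a tested member. One gene that the rule names is not reported here.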

Additional observations from a re-analysis of the deposited data

Results flagged for a closer look

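Among 86 groups of 4 plate sums looked at, 6 held a sum set apart from the other 3 by Dixon's criterion; chance flags about 1 in 20 groups. In side B of mutant plate 4, PHLDA2 stood at 8.45 CPM where the other 3 side B sums lay between 39.5 and 44.99 CPM, UGP2 at 702 CPM against 492 to 527 CPM, and hspa1b, an inducible HSP70 gene, at 106 CPM against 28.9 to 38.6 CPM. In side B of plate 3, mcl1a stood at 73.7 CPM against 42.3 to 44.99 CPM. In side A of plate 3, ENSDARG00000036174 stood at 2075 CPM against 1054 to 1167 CPM. In side A of plate 2, HSPB8 stood at 873 CPM against 161 to 280 CPM, with 39.3% of all its side A transcripts in 1 well of that plate.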

How the results depend on the processing

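The 8 mutant calls became 22 without thinning, 13 in draw 4, 15 for wells with at least 2 transcripts, 1, 0 and 4 for ATF3, JUND and NR4A3 wells, 2 for wells of at least 2000 transcripts, and 0 and 1 with MYL7 at 5% and 0.5%. They became 1 on thinned sums, 177 with no filter (11 higher, 166 lower; the median of all genes shifts to -0.55), 0 in run 1 alone, and 1 to 12 without 1 plate: only hspb9l remained without plate 1 or plate 4. The plate is the pair by design, and the fit with no replicate block gave 0 calls. Chosen after seeing the data, the calls were 3 without the deepest member, 1 without the well with most nppb, 0 without the deepest well of each sum, 14 for wells that thinning selects in at least 50% of draws, and 16 when side B held none before thinning. Of the 14, 11 were lower on side A, 10 of them mitochondrially encoded, and none was among the 8. BAG3 and hsp70l were among the 3 higher, and hspb9l did not pass. Of the 22 calls without thinning, 7 were among the 8, and 10 were lower, 8 of them mitochondrially encoded. Side A then held 153 mutant wells, which included all 86 members of the reported draw. With at least 2 transcripts, 9 of the 15 were lower, 7 of them mitochondrially encoded. The 9 wild-type calls became 128 with no filter (median -1.58), 0 with DESeq2, 20 without thinning, 3, 1 and 2 in the other draws, 0 on thinned sums, and 1 to 19 without 1 plate; the 0 genotype calls became 31 with no filter (median 0.92). The mutant share of 18.3% became 31.4% without thinning, 21.6% for wells of at least 2000 transcripts, 10.1% and 36.7% thinned to 500 and 2000; the wild-type share of 3.19% became 7.57% without thinning and 7.20% thinned to 2000.

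Signs turned for hsp90aa1.1 (-0.24 and -0.52 in draws 2 and 4), nppb (-0.25, draw 3), BTG1 (-0.046, JUND wells), EIF4G2 (-0.16, wells selected in at least 50% of draws) and HSPB8 (-0.046, draw 2). In wells of at least 2000 transcripts they turned for MT-ND1 (0.056), MT-ND2 (0.078), MT-CO1 (0.060), MT-CO2 (0.024) and MT-CO3 (0.000), in ATF3 wells for MT-CO1 (0.16), MT-CO2 (0.033) and MT-CO3 (0.006), and in run 2 for MT-ND1 (0.023), MT-CO1 (0.13), MT-CO2 (0.013) and MT-CO3 (0.042). Without 1 plate MT-ND1 ranged from -0.432 to 0.135, MT-ND2 from -0.468 to 0.137, MT-CO1 from -0.376 to 0.166, MT-CO2 from -0.483 to 0.124 and MT-CO3 from -0.465 to 0.148, each highest without plate 1. nppa, at 0.09, turned to -0.51, -0.12 and -0.41 in the other draws, -0.51 with at least 2 transcripts, -0.057 and -0.103 in JUND and NR4A3 wells, -0.33 without the well with most nppb, -0.25 without the deepest well of each sum, -0.33 for wells selected in at least 50% of draws, -0.33 on thinned sums, -0.36 with no filter, -0.28 to 0.39 without 1 plate (lowest without plate 2) and -0.060 in run 2. The cause was not tested. Of 1070 alternative fold changes 36 turned.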

Other observations

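Wells with little MYL7 transcript were left out of both sides. Of 53 mutant wells of at least 1000 transcripts with MYL7 under 2%, 6 held a thinned transcript of ATF3, JUND or NR4A3 (11.3%, exact 95% interval 4.27 to 23.03%). Of 28 such wild-type wells, 3 did (10.7%, 2.27 to 28.2%). These wells belong to no comparison above.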
